A study of Drosophila melanogaster with 3 samples.

Results

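Peaks of Labial fused to GFP in fly embryos often stood in runs of closely spaced summits, which are called chains here. Chains were selected on the summits' positions and signals in the deposited list of reproducible peaks of the pooled replicates. A summit (the base of highest signal in a peak) was dropped where a stronger one lay within 200 bp, neighbours at most 3000 bp apart were joined, and chains of at least 3 summits were kept. This gave 988 chains with 4100 summits, which is 40.9% of the 10023 summits left after 137 had been dropped. The other 5923 summits stood alone (3603) or in pairs (2320).

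Chromatin immunoprecipitation followed by sequencing had been carried out on whole Drosophila melanogaster embryos, males and females mixed, aged 0 to 24 h. There was 1 group, Lab-GFP embryos, with 3 biological replicates. All came from a transgenic line that carries lab fused at its C terminus to GFP, and an antibody against GFP was used. All 3 share the line and a control library, no embryos without the fusion were analysed here, and whole embryos mix all their cell types. The fusion's copy of lab and the native gene were not separated in the lists.

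The homeotic protein Labial, encoded by lab (FBgn0002522) in the Antennapedia complex, patterns parts of the embryonic head and of the endodermal midgut. Homeotic proteins bind short DNA words that recur throughout a genome, and Labial binds some of its known sites together with the cofactors Extradenticle and Homothorax. Enhancers of fly developmental genes often lie in series within introns and beside the gene, and several proteins can occupy the same enhancer. A run of summits can therefore mark a series of regulatory elements over a gene, although occupancy alone does not show that an element is used.

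Sequences around summits are given to show what a member looks like: the strongest summit of the largest chain, both summits of a close pair in it, the strongest summits of the chains with the highest signals at ush and near CG4004, and 3 summits in the largest chains with a word bound by Extradenticle and Labial together. They are plus-strand sequences from the RefSeq genome, Release 6 (dm6). Capitals mark a searched word, except in the close pair, where they mark the 5 bases centred on each summit. The word in the first window is a GATA word on the opposite strand. The windows at ush and CG4004 held none of the words of the 8 motifs searched. In the last 3 windows only the Extradenticle-Labial word is in capitals; the window in CG9328 also held a homeodomain core and a GATA word, and both windows in CG3764 an E-box.
Largest chain, strongest summit, intergenic, chr3L:11418363-11418463: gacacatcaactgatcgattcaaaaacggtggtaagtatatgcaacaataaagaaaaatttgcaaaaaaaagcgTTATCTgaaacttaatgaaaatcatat
Largest chain, close pair 203 bp apart, intergenic, chr3L:11417522-11417775: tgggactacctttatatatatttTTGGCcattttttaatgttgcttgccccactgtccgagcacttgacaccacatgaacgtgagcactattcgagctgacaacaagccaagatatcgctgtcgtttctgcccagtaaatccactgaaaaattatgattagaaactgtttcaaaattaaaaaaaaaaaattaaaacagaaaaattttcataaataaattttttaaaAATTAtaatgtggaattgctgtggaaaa
ush, strongest summit, intron, chr2L:481007-481107: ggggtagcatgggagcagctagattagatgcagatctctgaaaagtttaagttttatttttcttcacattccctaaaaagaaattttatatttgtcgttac
CG4004, nearest gene, strongest summit, intergenic, chrX:12751283-12751383: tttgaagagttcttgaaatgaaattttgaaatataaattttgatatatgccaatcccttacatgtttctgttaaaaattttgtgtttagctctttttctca
CG9328, intron, chr2L:20800061-20800161: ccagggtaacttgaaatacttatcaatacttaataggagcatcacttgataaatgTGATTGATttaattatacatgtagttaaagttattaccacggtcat
CG3764, intron, chr3L:17007617-17007717: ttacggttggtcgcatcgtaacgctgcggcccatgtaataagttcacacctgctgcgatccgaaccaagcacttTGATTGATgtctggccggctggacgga
CG3764, intron, chr3L:17005247-17005347: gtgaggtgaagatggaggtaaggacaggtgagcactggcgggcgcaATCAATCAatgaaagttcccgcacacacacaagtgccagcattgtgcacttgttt

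Most chains were short. Of the 988, 504 (51.0%) had 3 summits, 214 had 4, 118 had 5, 132 had 6 to 9 and 20 had at least 10, up to 16. Their median span was 3489 bp, from 404 to 20085 bp, and the median distance between neighbours in a chain was 1217 bp. All spans together covered 4.13 Mb, which is 3.09% of the chromosome arms. The 5 large arms were alike in this: arms 2L and 2R had 184 and 196 chains, arms 3L and 3R had 210 and 225, and the X chromosome had 173, and chains held 38.4% (3R) to 44.3% (2R) of an arm's summits. The small arm 4 had 9 summits and no chain.

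Each replicate's own list, cut to as many of its strongest peaks as the pooled list of reproducible peaks holds, contained about as many chains as the pooled list. Replicates 1, 2 and 3 had 979, 959 and 1002 chains, a mean of 980 ± 21.5 (SD, n = 3), with 4056, 3874 and 4240 summits. The largest chains in these lists had 23, 17 and 18 summits. The count of chains and their sizes were close to each other in the 3 replicates, as the plot of chain sizes shows.

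**Figure D1:**
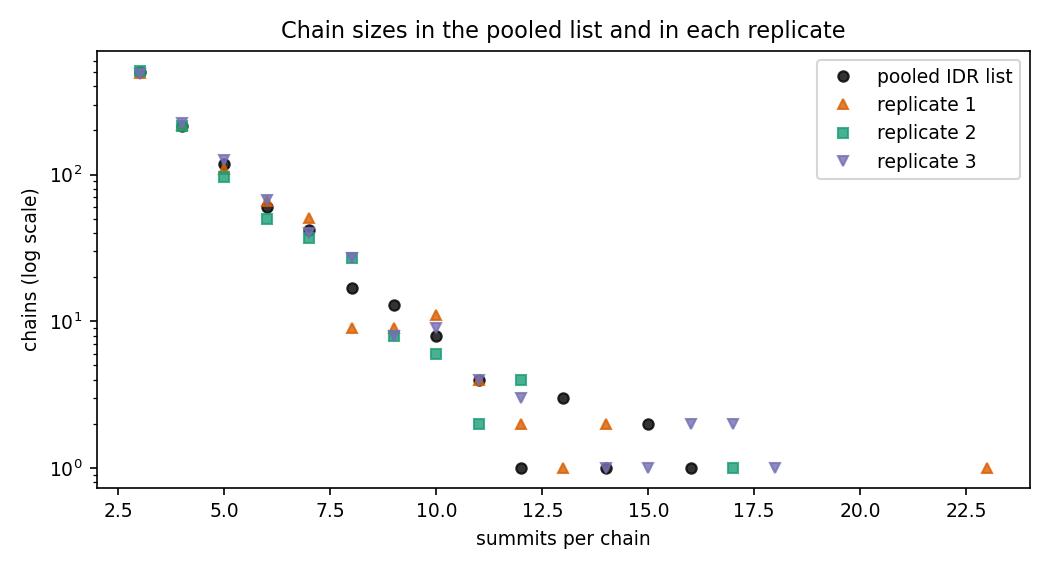
Number of chains (vertical axis, log scale) by the number of summits in a chain (horizontal axis), in the pooled list of reproducible peaks and in an equal number of the strongest peaks of each replicate. All 4 lists have about 500 chains of 3 summits and fall off alike, and the largest chain has 16 summits in the pooled list and 23 in replicate 1.

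At the edge of the rule, the chains whose widest distance came closest to the limit were those at p38a and kirre (2995 bp) and Elp5 (2993 bp). Just outside were 3 summits at Inx2 (3014 bp) and 2 overlapping runs of 3 at SNF4Agamma (3015 bp).

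Part of the crowding was very close pairs. Before any summit was dropped, 593 neighbouring pairs lay 201 to 360 bp apart, only 13 lay 361 to 500 bp apart, and 3669 lay 501 to 3000 bp apart. The smallest distance in the list was 199 bp. The 3 replicates had the same gap in spacing, with 544, 593 and 520 pairs at 201 to 360 bp and 19, 16 and 17 pairs at 361 to 500 bp. Within chains, 424 of 3112 distances (13.6%) were of 360 bp or less, in 352 chains (35.6%), and in 378 of these pairs the peak intervals overlapped, against 3 of the 2681 pairs over 500 bp apart. Chromatin had been sheared to 200 to 800 bp.

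The weaker member of a close pair was found less often in the replicates than other chain summits. Of 414 weaker members, 143 (34.5%) had a summit within 100 bp in the cut list of all 3 replicates. The share was 71.8% of the 415 stronger members and 68.6% of the 3271 chain summits in no close pair. Per replicate, 65.4% ± 3.70 of the weaker members were matched, 88.8% ± 1.64 of the stronger ones and 86.1% ± 2.38 of the rest (SD, n = 3). The weaker members also had lower signals, with a median of 275 against 592 for the stronger members and 373 for the rest, and the part of signal in this was not tested. Joining such pairs, by dropping weaker summits within 400 bp, left 850 chains with 3401 summits, of which the largest had 13; of the 139 chains lost, 128 had 3 summits.

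**Figure D2:**
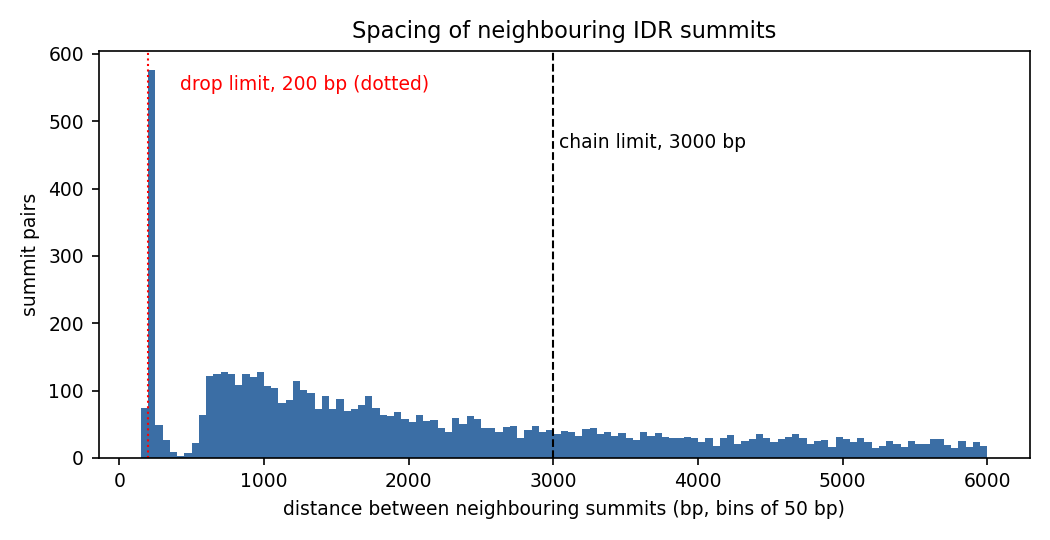
Number of neighbouring pairs of summits (vertical axis) by their distance in bins of 50 bp (horizontal axis, to 6000 bp), for all reproducible peaks before any was dropped. A narrow spike just above 200 bp is set apart by a nearly empty stretch up to 500 bp from a broad range that falls slowly through the limit of 3000 bp used for chains.

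Over all signals, single summits in chains were matched in the replicates about as often as summits outside them. Replicates 1, 2 and 3 had a summit within 100 bp of 83.2%, 83.1% and 86.5% of the chain summits and of 81.9%, 84.8% and 84.9% of the other summits. The means were 84.3% ± 1.89 and 83.9% ± 1.72 (SD, n = 3 each). The difference changed sign between replicates. All 3 replicates matched 2684 chain summits (65.5%) and 3845 other summits (64.9%), and no replicate matched 45 and 55 of them. At like signal this was not so throughout: with all summits ranked by signal in 4 classes of equal size, all 3 replicates matched 9.39% of chain and 9.56% of other summits in the weakest class, 58.7% and 67.9% in the second, 88.8% and 91.3% in the third, and 96.6% of both in the strongest. The pooled list was made from the same replicates, so these shares do not stand apart from the rule.

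Chains with at least 3 matched summits in every replicate numbered 559 (56.6%). Longer chains pass this more easily by construction, since a chain of 3 needs every summit: 137 of 504 chains of 3 passed, 270 of 332 with 4 or 5 summits, and all 152 with 6 or more. Built anew from each replicate's own list, 704, 707 and 746 of the 988 chains reappeared as a chain over their summits, a mean of 719 ± 23.4 (SD, n = 3). All 3 replicates rebuilt 500 (50.6%), and none rebuilt 64. The ends were less stable, with 181 chains (18.3%) rebuilt with the same first and last summit in all 3.

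Weak peaks lay inside chains too. Of the 19840 pooled peaks below the reproducibility limit, 1326 fell within chain spans, which is 3.21 per 10 kb, against 1.43 per 10 kb elsewhere on the arms. They were in 649 chains (65.7%). Chain spans were chosen as places with several peaks of the same pooled data, so this rate does not stand apart from the rule. The rate around the other summits was not computed. Counting replicate summits of any rank, 828 chains had 3 matched summits in all replicates.

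The largest chain lay in a stretch without protein-coding genes on arm 3L. Its 16 summits ran over 20074 bp at chr3L:11402484-11422558 (dm6), between CG44362 (4619 bp away) and CG7560 (2600 bp away), and all 16 were intergenic. Signals went up to 1040 at a summit that ranked 999, 702 and 1135 in replicates 1, 2 and 3; signals are on their own scale in each list, so ranks are given for replicates. The replicates matched 13, 15 and 12 of the summits, and 11 were matched in all 3. With close pairs joined, 13 summits remained.

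Another 2 of the 12 largest chains stood in the same neighbourhood. The one nearest Dyro had 13 summits over 14291 bp at chr3L:11284154-11298445, with scyl and CG7573 on its sides, and the one nearest CG6163 had 11 over 8925 bp at chr3L:11345715-11354640, between CG6168 and CG6163. From the first of these to the end of the largest chain, a region of 138 kb held 5 chains, 65 summits and 6 protein-coding genes. That is 4.70 summits per 10 kb, against 0.749 over all arms. The replicates had 60, 62 and 60 of their strongest summits there, so the density was alike in all 3. The region was chosen after its values were seen. Its ends are those of pooled chains made from these replicates, so their counts do not stand apart from the choice.

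A chain of 15 summits lay wholly inside CG3764 at chr3L:17001234-17012563, with its strongest summit (signal 1085) 2 bp from a start site and 14 in introns. Only 8 of these 15 were matched in all 3 replicates, and joining close pairs left 10.

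Of the 20 largest chains 12 had a protein-coding host, that is, a gene whose body held most of the chain's summits. On arm 2R, shn, which encodes a zinc finger partner of the Dpp pathway's transcription factors, held all 14 summits of a chain over 13669 bp, with a top signal of 2351 that ranked 209, 199 and 172 in the replicates. PRAS40, a regulator of the Tor kinase complex, held 13, of which 12 were intronic. msn, a kinase of the JNK cascade, held 10 of 13 summits in a chain of 20085 bp whose strongest summit (signal 1349) lay 16 bp from the start site of RpL8, a ribosomal protein gene, and whose end reached dos. atos held 11 of 12, CHES-1-like, a forkhead protein gene, 9 of 10, and Raf, the kinase between Ras and MEK, 8 of 10. Diap1, an inhibitor of apoptosis, held 6 of 10, and CG9328, CG42258, shep and the overlapping genes CG5445 and Fim hosted the other chains of 10 summits inside genes.

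The remaining chains of at least 10 summits had no host, and most of their summits were intergenic. Near CG1888, between brp and Or45b, a promoter summit of signal 5367 ranked 24, 22 and 17 in the replicates. The median of that chain's 11 summits was 287, with 6 of them intergenic and 4 inside protein-coding genes. At RpL30 the strongest of 11 summits (signal 2207) lay 12 bp from the start site and 9 were intergenic, in the stretch between CG31793 and Sidpn. At mtSSB 10 of 11 were intergenic, on the side of tara, and this chain was rebuilt with the same ends in all 3 replicates. The chain nearest Rh5, between Hacd1 and Wdr81, had all 10 summits in intergenic sequence. All 20 chains of this size were rebuilt in all 3 replicates.

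**Figure D3:**
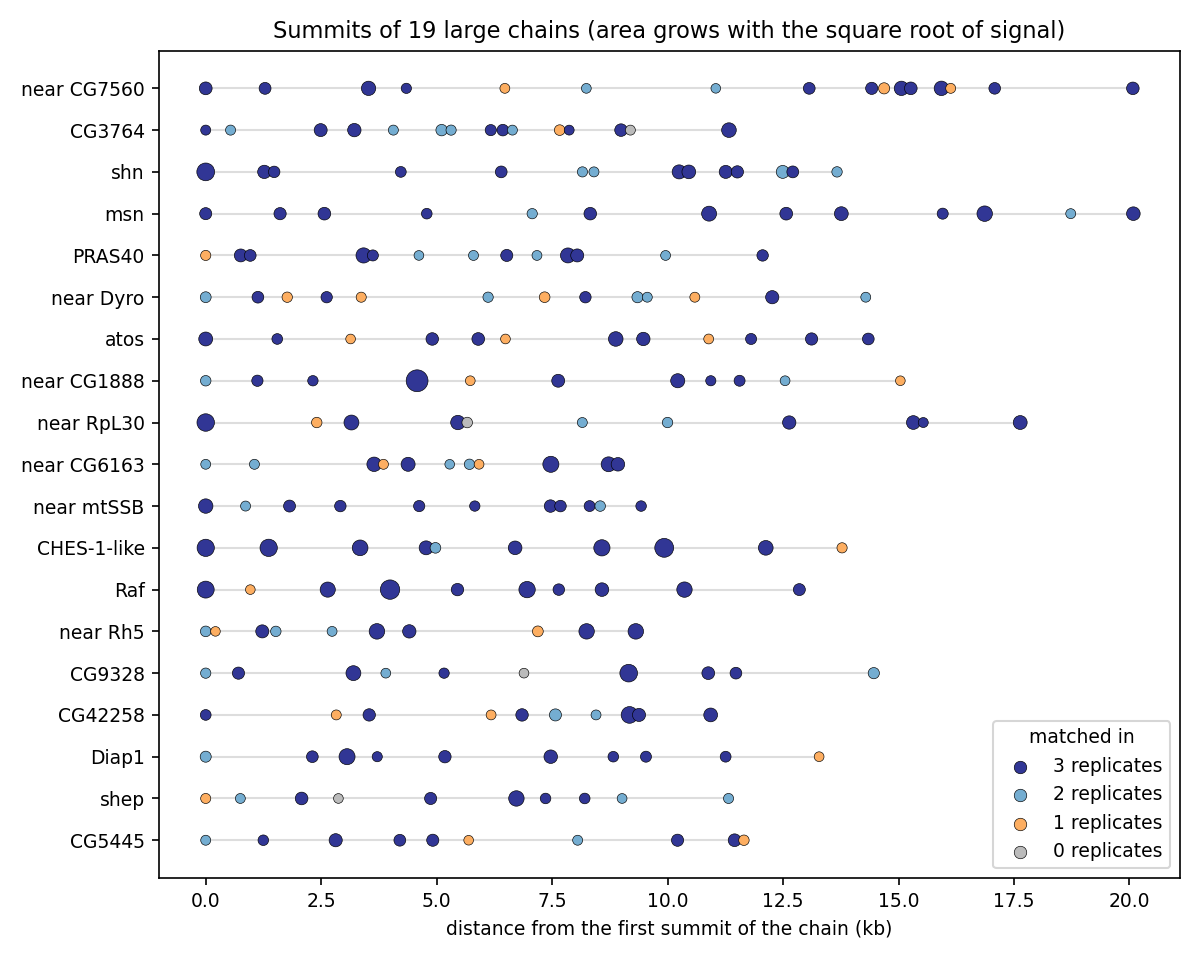
Summits of 19 chains with at least 10 summits, by distance from the first summit in kb (horizontal axis); rows are named by the host gene or, with no host, the nearest gene. Point area grows with the square root of the signal and colour gives the number of replicates that matched the summit; the largest chain spans about 20 kb, and most points are matched in all 3 replicates.

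The chains with the highest single signals were at ush, near CG4004, and at Trl, Lk6 and ph-p. In ush, which encodes a zinc finger cofactor of GATA factors, a chain of 8 summits at chr2L:479112-490840 held the summit of signal 10549 that ranked 3, 1 and 2 in the replicates. Its other 7 summits had signals of 339 to 2519, and all 8 were matched in all 3 replicates. A second gene, cbt, has its start site in the same stretch, 1369 bp from the strongest summit. Nearest CG4004, 8 summits at chrX:12748349-12756032 included signals of 6647 and 3973, 1039 bp apart and both intergenic, with Smr and Paics on the sides. The strongest ranked 10, 7 and 5, and the next 43, 46 and 56.

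Trl, the gene of the GAGA factor, and ph-p, a Polycomb group gene, each held all 5 summits of a chain. In Trl an intronic summit of 6500 ranked 7, 5 and 8, and the other 4 had signals of 397 to 1350. In ph-p a pair of promoter summits 631 bp apart had signals of 5894 and 3726 and ranks of 9, 12 and 11 and of 68, 45 and 49. The weakest summit there, 7 bp from a start site, had a signal of 209 and was matched in 1 replicate. Lk6, a kinase gene, had a summit of 6196 with only 2 weaker ones, of 252 and 550, so in this chain the top summit outweighed the rest. The chain was not rebuilt in replicate 2. Over all chains the strongest summit was 1.82 times the median one (median over chains) and 19.2 times at most.

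Chain summits lay more often in introns and less often at promoters or between genes than the other summits. Introns held 50.3% of chain summits and 39.7% of the others, promoters (start sites of protein-coding genes and the 500 bp around them) 32.2% and 37.2%, and intergenic sequence 14.9% and 20.8%. Over the replicates' own lists introns held 49.3% ± 0.631 of chain summits and 39.4% ± 1.11 of the others, promoters 32.6% ± 0.766 and 38.7% ± 2.56, and intergenic sequence 15.2% ± 0.267 and 19.8% ± 1.70 (SD, n = 3 each). In none of these 3 classes did the replicates of chain and other summits overlap. With 3 replicates the smallest two-sided exact sign-flip p is 0.25, so no such difference can pass 0.05. With close pairs joined the promoter share of chain summits was 29.9%. Of the stronger members of such pairs 41.9% were at promoters, and of the weaker 40.1%.

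**Figure D4:**
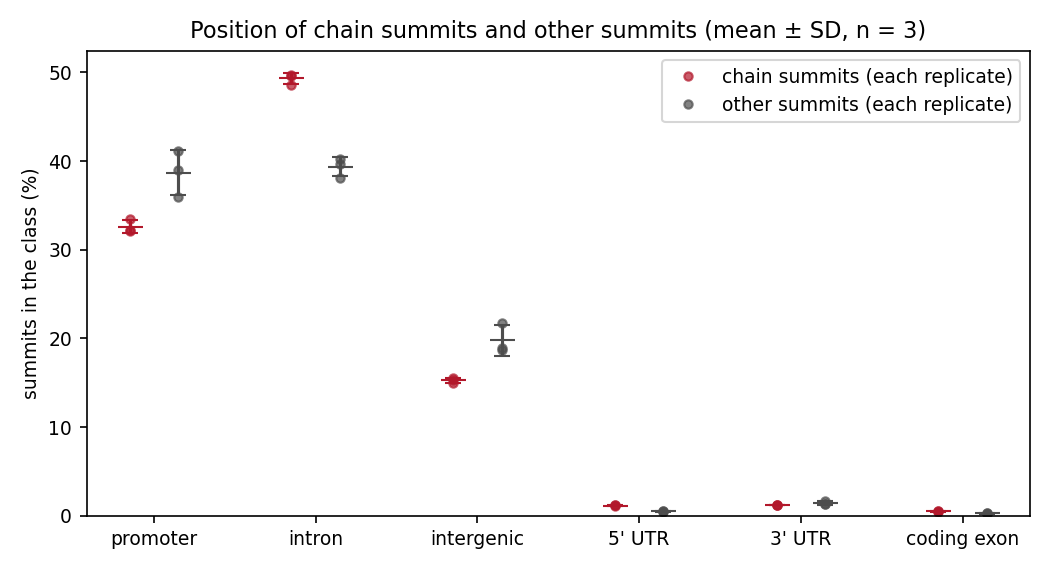
Share of summits in each annotation class (vertical axis, %), for chain summits (left of each pair) and other summits (right), with a point for each replicate's own list and bars for mean ± SD (n = 3). Chain summits sit at 49.3% in introns, above the other summits at 39.4%, and at 32.6% at promoters, below the others at 38.7%.

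At least 1 promoter summit was found in 729 chains (73.8%), 71 chains had only promoter summits, and 66 had only intergenic ones. A chain has several summits, so it holds a promoter summit more easily than a single summit does. Groups of other summits of like size were not compared, so the share is not shown to be particular to chains. The strongest summit of a chain was at a promoter in 365 chains (36.9%), and 30.7% of the 3112 weaker chain summits were. In the replicates' own chains these shares were 35.8% to 38.8% for the strongest and 30.4% to 31.8% for the weaker summits (37.4% ± 1.54 and 31.1% ± 0.699, SD, n = 3). Of the summits outside chains 37.2% were at promoters in the pooled list. The rule uses signal too, and other summits of like signal were not compared, so this difference is not shown to be particular to chains. The median distance to the nearest start site was 1341 bp for chain summits and 1448 bp for the others. Leaving out promoter summits, the medians were 2507 and 4518 bp, and since most chains hold a promoter summit and neighbours are at most 3000 bp apart, the rule itself brings these chain summits near start sites.

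Genes that hosted chains were longer than most genes. A protein-coding gene hosted 696 of the 988 chains (70.4%), and in 444 (44.9%) every summit lay inside that gene. In the replicates' own lists 44.9% ± 2.54 of chains lay wholly in a gene (SD, n = 3). The hosts were 618 genes, which is 4.43% of all 13945 protein-coding genes, and their median length was 17570 bp against 2166 bp for all genes. Of genes under 5 kb 0.488% hosted a chain, of those of 5 to 20 kb 11.8%, of those of 20 to 50 kb 26.6%, and of those over 50 kb 28.7%. A gene shorter than a chain can hardly hold most of it, so length and hosting are tied by the definition.

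Within their hosts, chains lay towards the 5' end. Of the 696 hosted chains 364 (52.3%) were centred in the first 25% of the gene, 167 in the next, 114 in the third and 51 (7.33%) in the last. The same was not counted for other summits, so it is not shown to be particular to chains. Promoters held 37.2% of the other summits and 32.2% of chain summits. Where promoters are counted, 1121 genes (8.04%) had a chain summit within 500 bp of a start site, of 3554 genes with any summit there. Without a host stood 292 chains, of which 14 lay over a non-coding gene.

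Several chains in the same gene were found in 99 genes, and at least 3 in 20. ush came first with 5 chains and 20 summits in 64341 bp. Beside the chain at its 5' part it had 4 chains of 3 summits further into the gene, with top signals of 578, 607, 846 and 397, of which only that of 846 was rebuilt in all 3 replicates. Of the 7 genes with 4 chains each, sbb, Eip75B, bun and kirre had the most summits, and the others were CG32264, fz and stx. In sbb, which encodes a nuclear corepressor, an intronic chain of 6 had a summit of 4969 that ranked 22, 35 and 26 and lay 20096 bp from the nearest start site, and it was rebuilt with the same ends in all 3 replicates. Eip75B, a nuclear receptor induced by ecdysone, had 3, 3, 6 and 4 summits in its chains, 3 of which included a promoter. bun, a TSC22 family gene, had 7, 3, 4 and 3. kirre, an immunoglobulin family gene of muscle founder cells, had 3, 4, 5 and 3 along 394149 bp, with no chain summit at its start sites, and none of its chains was rebuilt with the same ends everywhere. No chain of 3 summits in sbb, Eip75B, bun or kirre was rebuilt in all 3 replicates.

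Gene lists were then counted for hosts, beside the share of all genes in the same length classes that host a chain. No test was made of any list, since lists and chains were chosen with results of these data known. Summits given for a gene are those of its chains that lay inside it. The like-length share allows for length only, not for whether a gene had any summit. Epithelial polarity and junction genes had the highest share, 7 of 13 against 19.5% of genes of like length. Any summit lay at a start site of 8 of these 13 genes, against 3554 of all 13945. scrib, the basolateral scaffold, had 2 chains with 8 summits, dlg1, its partner, had 2 with 6, and Fas3, a septate junction protein, had 1 with 4. In dlg1 the weaker chain was not rebuilt in replicate 2. In scrib the strongest summits of the chains had signals of 818 and 347, and chain summits also lay at its start sites.

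Receptor and signalling genes followed. Of the EGF receptor pathway 5 of 12 genes were hosts, against 18.4% of genes of like length. Any summit lay at a start site of 10 of the 12. pnt, its ETS activator, had 3 chains with 13 summits, the strongest (1384) ranking 736, 532 and 553. aop, the ETS repressor that opposes it, had 2 chains with 9, and S, which encodes the trafficking protein Star, had 1 with 6. In pnt only the chain with the strongest summit was rebuilt in all 3 replicates. Of the Wingless pathway 5 of 12 were hosts, against 18.6%, and 6 of the 12 had any summit at a start site. The receptors fz and fz2 had 4 chains with 14 summits and 2 with 11, and nkd, a feedback inhibitor, had 2 with 9. None of the chains in fz was rebuilt in all 3 replicates, nor was 1 of the 2 chains in each of fz2 and nkd. Of the Dpp pathway 4 of 15 were hosts, against 10.7%: shn (17 summits in 2 chains), the inhibitory Smad gene Dad (5), sog, an extracellular inhibitor (5), and the receptor gene wit. Of these 15 genes 6 had any summit at a start site. The chain in Dad and the smaller chain in shn were not rebuilt in all 3 replicates.

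Ecdysone receptor and early response genes had 4 hosts of 11, against 24.0%, with Eip75B (16 summits), ftz-f1 (8) and EcR (7) leading. Neither chain in EcR was rebuilt in all 3 replicates. In ftz-f1 the chain of 3 summits was rebuilt in no replicate. In Eip75B 1 chain of 3 was rebuilt in none and the other in replicate 2 only. Gut and visceral mesoderm regulators had 3 of 13, against 7.98%. Mef2, the muscle regulator, had 7 summits in 2 chains, Hnf4, a nuclear receptor of gut and fat, had 4, and GATAe, an endodermal GATA factor, had 3. In GATAe all 3 were at promoters, and the strongest (452) ranked 6666 in replicate 1 and 3102 in replicate 3, with no summit within 100 bp in replicate 2. This chain was rebuilt in replicate 3 only. A chain that begins in Mef2 ended in a summit of 4346 at the promoter of Pal1. That chain was rebuilt in replicate 1 only. GATA factors and ush had 2 of 6 hosts (ush and GATAe), against 17.1%, and grn and srp, which were no hosts, had a chain summit at a start site. With any summit at a start site were 8 of the 11 ecdysone genes, 6 of the 13 gut regulators and 5 of the 6 GATA genes.

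Of 8 homeotic genes lab and Antp were hosts, against 23.4% of genes of like length. The chain in lab lay at chr3R:6665479-6670864 with all 5 summits in introns, 7726 to 13111 bp from the gene's 5' end. They were 2025 to 7410 bp from the start site of a short annotated transcript at its 3' end. Their signals along the chromosome were 487, 331, 358, 623 and 211, and the strongest ranked 2504, 2025 and 1920 in the replicates. The copy of lab in the fusion was not separated from the native gene. Antp had 3 summits of 757, 445 and 620, the first and second 202 bp apart. Of 6 Hox cofactor genes 1 (16.7%) was a host, against 15.2% of genes of like length. This was hth, with summits of 631, 266 and 322 within 585 bp, which includes 2 close pairs. The chain in hth was not rebuilt in replicate 2, and that in Antp was not in replicate 3.

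The other lists had 2 hosts, 1 or none, some above and some below the share of genes of like length. GAGA factor and insulator genes had 2 of 9 (Trl and psq) against 7.78%, Hippo pathway genes 2 of 11 (wts with 7 summits, kibra with 6) against 9.85%, tracheal and salivary gland regulators 1 of 8 (rib) against 11.3%, Notch pathway genes 1 of 10 (mam, 13 summits in 3 chains) against 18.8%, and muscle differentiation genes 1 of 10 (Tm1) against 14.7%. In the same order, 6, 5, 4, 5 and 2 genes of these lists had any summit at a start site. Not rebuilt in all 3 replicates were both chains in kibra, the chain in Tm1, and 1 chain each in psq and mam. No neuronal synapse and excitability gene of 10 was a host, against 24.5% of genes of like length, and none of 32 dpr and DIP genes, which encode neuronal surface proteins, against 19.3%. elav, the pan-neuronal RNA-binding protein gene, and Syt1 each had a chain summit at a start site. Of the chemosensory receptor genes (179) and cuticle protein genes (96) none was a host, against 0.980% and 1.31% of genes of like length, and none had a chain summit at a start site. Few genes of these lists had any summit at a start site, in a chain or not. There were 2 of the 10 neuronal genes, 6 of the 32 dpr and DIP genes, 2 chemosensory receptor genes and 1 cuticle protein gene. Whether chains were rarer here than so few summits would give was not tested.

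Ribosomal protein genes, which are short, hosted none of the chains, and some had a start site within one. Of 90 genes 23 (25.6%) had a chain summit at a start site, against 8.04% of all genes, and 74 had any summit there. Among genes with any summit at a start site, it was a chain summit in 31.1% of these ribosomal protein genes and in 31.5% of all genes. RpL8 and RpL30 belonged to chains of at least 10 summits, as given above. RpS14a and RpS14b, near-identical neighbours whose reads could be split between them, shared a chain, as did RpL12 and RpL39.

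**Figure D5:**
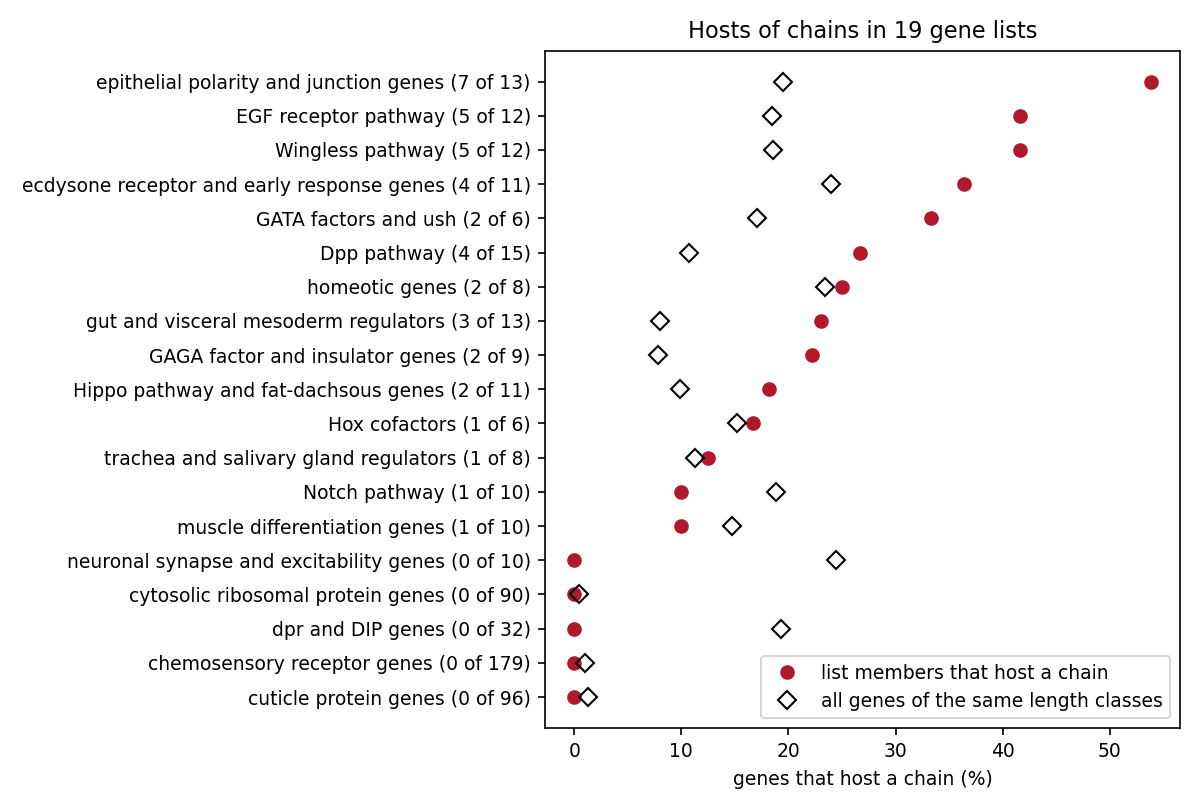
Share of genes that host a chain (horizontal axis, %) in 19 gene lists (filled points, with the counts beside each name) and in all genes of the same length classes (open diamonds). Epithelial polarity genes sit at 53.8% against 19.5%, and neuronal genes and dpr and DIP genes at 0 against 24.5% and 19.3%. The diamonds allow for gene length only, not for whether a gene had any summit.

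Words bound by known factors were counted on both strands within 100 bp of each summit, and chain and other summits differed little. The Extradenticle-Labial word (TGATTGAT or TGATGGAT) was present at 3.45%, 3.56% and 4.10% of chain summits in the own lists of replicates 1, 2 and 3, and at 2.96%, 2.72% and 3.17% of other summits. The difference was 0.758 ± 0.231 percentage points (SD, n = 3), larger in chains in every replicate, and all arm windows of this size gave 1.95%. By class, in the pooled list, it was at 1.67% of chain and 1.91% of other summits at promoters, at 4.99% and 3.79% in introns, and at 4.90% and 3.09% in intergenic sequence. The difference turned to -0.252 when only the stronger 50% of each replicate's cut list was used. Of the 988 chains 142 (14.4%) had such a window and 15 had at least 2, so most chains had none of these letters near a summit. CG3764 had it at 2 of its 15 summits.

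GATA words (AGATAA or TGATAA) were the commonest, at 32.8% ± 0.648 of chain summits and 30.3% ± 0.729 of the others, against 21.4% of arm windows. This difference of 2.55 points also changed sign, to -0.185, in the stronger 50%. In the pooled list the shares were 28.2% of chain and 28.7% of other summits at promoters, 36.6% and 33.4% in introns, and 33.5% and 28.2% in intergenic sequence. The GAGA word (GAGAG) was at 26.7% ± 0.595 and 24.6% ± 0.183, against 21.5%, and kept its direction in each alternative tried. In the pooled list it was at 32.5% of chain and 27.2% of other promoter summits, and at 23.8% of chain and 23.7% of other intronic summits. The E-box CAGGTG was at 6.72% ± 0.474 and 5.98% ± 0.409, against 7.87% of arm windows.

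Lower in chains than at other summits was the DRE word (TATCGATA), known from promoters of housekeeping genes. It was at 1.58% ± 0.128 of chain summits and 2.49% ± 0.334 of the others, both above the 0.564% of arm windows. In the pooled list it was at 4.09% of chain and 5.31% of other promoter summits, at 0.194% and 0.383% of intronic summits, and at 0.980% and 0.813% of intergenic ones. The homeodomain core (TAATTA) differed by -0.696 ± 0.514 points (chain minus other), and the word of the early activator Zelda (CAGGTAG) at 0.694% ± 0.135 and 0.949% ± 0.0726; both changed sign with windows of 200 bp. The AP-1 type word (TGANTCA) was at 5.04% ± 0.242 and 4.87% ± 0.459, against 3.93% of arm windows. GC content was 39.8% ± 0.517 around chain summits and 38.4% ± 0.510 around the others (all SD, n = 3), against 42.2% in arm windows. In the exact two-sided sign-flip test over the 3 replicates the AP-1 type word had p = 0.75 and the other 8 measures p = 0.25, the smallest possible, with an adjusted p of 0.28 over the 9.

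Summits of a chain seldom shared long stretches of sequence. Of 8003 pairs of non-overlapping windows within chains, 4 shared a stretch of 20 bases, in 4 chains. The largest of these was a chain of 9 summits nearest trx on arm 3R.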

How the data were processed

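Peak lists of 3 biological replicates were used. The authors' file descriptions state that the replicate lists and a pooled list hold ranked peaks called against a shared control, and that the reproducible (IDR) list was derived from these. The signal of a peak is the authors' deposited value and ranks peaks within a list; the sources used here name neither aligner, peak caller nor reproducibility threshold. Depth per replicate is unknown, and no interval for it can be given. The summit is the peak's start plus the offset deposited by the authors.

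Members, gene lists, motifs and tests were chosen with earlier results of these data known. Chains were built on the dm6 list. Replicates were compared through an equal number of their strongest peaks, with summits matched within 100 bp. Nothing in the labels says more about how the replicates were grown, and spread is over these samples. Genes came from Ensembl release 115 (13945 protein-coding genes on the arms) and sequence from RefSeq Release 6, whose arms hold every peak end. Each summit got the first class that applied, from promoter through 5' UTR, coding exon, 3' UTR and intron to intergenic. Only protein-coding genes were used for these classes, so intergenic sequence can hold non-coding genes. Motif shares were compared over replicates with the exact sign-flip permutation test, adjusted by the Benjamini-Hochberg method.

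Named genes were the hosts or nearest genes of the 20 largest chains, of the 5 with the highest signal, the 5 genes with most chains (ties by summits in chains), at most 3 members of each list by chain summits, the flanking genes of the largest chains and the chains at the limit. CG32264, stx, dos, wit, grn, srp, the promoter gene Pal1, the chain near trx and the ribosomal protein genes that share a chain were added after their values were seen. Of the listed symbols 2 had no match; these, and 1 of the 20 largest chains, are not reported here. Analyses used Python 3.11.15 with numpy 2.4.6, pandas 2.3.3, scipy 1.17.1 and matplotlib 3.10.9. Coordinates are 1-based.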

Additional observations from a re-analysis of the deposited data

How the results depend on the processing

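Of 107 recomputed values, 80 kept their direction, moved by less than the SD over replicates or, for counts, stayed within 1.5 times the reported value. Asking for 4 or more summits left 484 chains with 2588 summits, 28.4% of them at promoters, and 42.4% of chains in a single gene. The stronger 50% of the peaks gave 301 chains, 1087 summits, 254 chains supported in all 3 replicates, a promoter share of 30.7% and 48.5% of chains in a single gene. There the differences of the Extradenticle-Labial word (-0.252), the GATA word (-0.185) and the AP-1 type word (-0.334) were below 0. The promoter share was 29.8% with summits dropped within 300 bp, 29.9% within 400 bp (an alternative chosen after seeing the data), 30.7% with gaps of at most 2000 bp, 33.8% with 5000 bp, 43.7% with a start site window of 1000 bp and 24.0% with 250 bp. Chains in a single gene were 51.3% with gaps of 2000 bp, 36.1% with 5000 bp and 68.0% with 1000 bp flanks. Windows of 200 bp gave a GC content of 40.8% and differences of 0.0707 for Zelda and 0.778 for the homeodomain core; windows of 50 bp gave 38.9% and -0.312 for the AP-1 type word. The cause was not tested, beyond fewer peaks entering under the stricter rules. Leaving out each replicate in turn gave -0.058 to 0.351 for the AP-1 type word, below 0 without replicate 2, and 622 to 641 supported chains; no other motif changed direction. Chains numbered 1042 in the dm3 list, 739 with gaps of at most 2000 bp and 1183 with 5000 bp. No comparison between groups of samples, paired or not, was possible because all samples form 1 group. Chain and other summits were paired within each replicate, and the sign-flip test used these differences. Depth was not analysed here and limits what the absence of a summit can show.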
